A study of Rattus norvegicus with 20 samples.

Results

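Proteasome subunit genes were taken as every row of the expression table whose symbol begins with PSMA, PSMB, PSMC, PSMD or PSME followed by a digit, which gave 45 of 17310 rows. Of these, 5 encode subunits that interferons are known to induce (Psmb8, Psmb9, Psmb10, Psme1 and Psme2), and they were set against the other 40. The samples are microglia (macrophages that live in the brain) from rat cortex, purified on antibody to the myeloid surface protein CD11b from male Sprague-Dawley rats aged 21 days and cultured for 5 days without serum before RNA sequencing. The study asked how these cells respond to an opioid or to agonism of Toll-like receptors, and all 20 libraries were cells of this kind. The groups were PBS as vehicle, morphine at 1 uM, LPS at 1 ng/mL (an agonist of TLR4), PAM3CSK4 at 1 ng/mL (an agonist of TLR2) and zymosan at 100 ug/mL (yeast cell wall particles, recognised through TLR2), with 4 libraries each. Treatment length was not stated by any source used here, nor were the 4 libraries said to be separate animals or cultures, so p-values measure the spread between these libraries, which may be technical.

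The proteasome degrades proteins that carry ubiquitin chains. Its core is a barrel of alpha-subunit rings, which gate the entry, around beta-subunit rings, which cut the substrate. A regulatory particle of ATPase and non-ATPase subunits binds, unfolds and feeds the substrate in. The catalytic beta subunits Psmb5 (chymotrypsin-like), Psmb6 (caspase-like) and Psmb7 (trypsin-like) are replaced by Psmb8, Psmb9 and Psmb10, in that order, when the immunoproteasome is built. Psme1 and Psme2 together form a ring-shaped activator that caps the core without ATP. The immunoproteasome is known for producing peptides for MHC class I and is abundant in cells of the immune system, microglia among them during inflammation.

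The 5 inducible genes differ in their promoters, and the sequences just before their transcription starts are shown for that reason. The windows are from RefSeq on the GRCr8 build, each 100 bases long on the gene's own strand, from 94 bases before the start to 6 bases from it. Psmb8 lies at chr20:4657026-4657125 (minus strand), Psmb9 at chr20:4668906-4669005 (plus strand), Psmb10 at chr19:50743287-50743386 (minus strand), Psme1 at chr15:33038877-33038976 (plus strand) and Psme2 at chr15:33052746-33052845 (minus strand). Capitals mark matches to GAAANNGAAA on either strand, the core of the element that interferon regulatory factors are known to bind.
Psmb8: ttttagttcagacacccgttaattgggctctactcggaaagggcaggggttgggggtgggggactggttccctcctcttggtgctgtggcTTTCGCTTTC
Psmb10: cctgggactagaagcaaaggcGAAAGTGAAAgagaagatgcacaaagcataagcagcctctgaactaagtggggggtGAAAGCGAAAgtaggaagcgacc
Psme2: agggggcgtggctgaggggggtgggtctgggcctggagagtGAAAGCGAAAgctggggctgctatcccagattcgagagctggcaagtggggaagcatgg
Psmb9: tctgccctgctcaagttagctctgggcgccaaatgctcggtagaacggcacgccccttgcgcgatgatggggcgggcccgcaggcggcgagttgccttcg
Psme1: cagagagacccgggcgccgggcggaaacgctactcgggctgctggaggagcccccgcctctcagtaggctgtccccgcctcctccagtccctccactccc
Psmb10 held 2 matches, at -73 to -64 and at -17 to -8 from the start, Psme2 held 1 at -53 to -44, and Psmb8 held 1 on the other strand at -4 to 6. Psmb9 and Psme1 had none in the full promoter window. Psmb8 and Psmb9 are neighbours in the MHC region with Tap1 between them, and Psme1 and Psme2 lie next to each other apart from Emc9.

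Promoter windows reaching from well before the start to just past it were matched for 39 of the 45 rows. The interferon response core was present in 3 of the 5 inducible genes, in 3 of the other 34 (Psma4, Psmb3 and Psmd7; 8.82%) and in 3.92% of 33469 promoters. The core TGACNNNGC, bound by factors of the NFE2L family that are known to drive proteasome subunit genes, was present in none of the 5 inducible genes, in 8 of the other 34 (23.5%) and in 12.1% of all promoters. The STAT core TTCNNNGAA was present in 1 of the 5, in 8.82% of the other members and in 8.87% of all promoters. CCAAT boxes stood in 2 of the 5, 52.9% of the others and 37.5% of all, and the NF-kB core GGGNNNNNCC in 3 of the 5, 58.8% and 47.3%. Both strands were searched and the motifs were allowed to overlap. A match describes letters and is not evidence of binding.

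The 20 libraries fell into sets that the group labels do not explain. The leading component of the differences between libraries of one group, computed over tested genes that are not members, took up 63.3% of that variance and split off 7 libraries, which were replicate 1 of every group plus replicate 2 of morphine and of LPS. Relative depth, recovered from the steps between low values, ran from 0.558 to 1 of the deepest library and from 0.701 to 0.937 in these 7; absolute depth is unknown. The median gene was lower by 0.36 on the log2 scale in the 7 than in the other 13. Subunits went in different directions. All 5 inducible genes were higher in the 7 libraries, by 0.32 to 0.61 (log2), and so were 7 of 7 core beta genes, by 0.11 to 0.41. All 6 ATPase genes and 10 of 11 non-ATPase genes were lower there. Psmd1 and Psmd2, the large scaffold subunits of the regulatory particle, differed most among these: Psmd1 spanned 30.0 to 41.4 FPKM in the 7 libraries and 70.7 to 90.3 FPKM in the other 13, and Psmd2 spanned 38.6 to 58.1 against 84.4 to 106 FPKM. No value of either gene overlapped between the sets. The tests of single members below were therefore also computed with the library set as a term and in the larger set alone. Ratios of members were computed in the larger set without a test there. The lists of partners, regulators and markers are given below without a correction for the library sets.

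**Figure D1:**
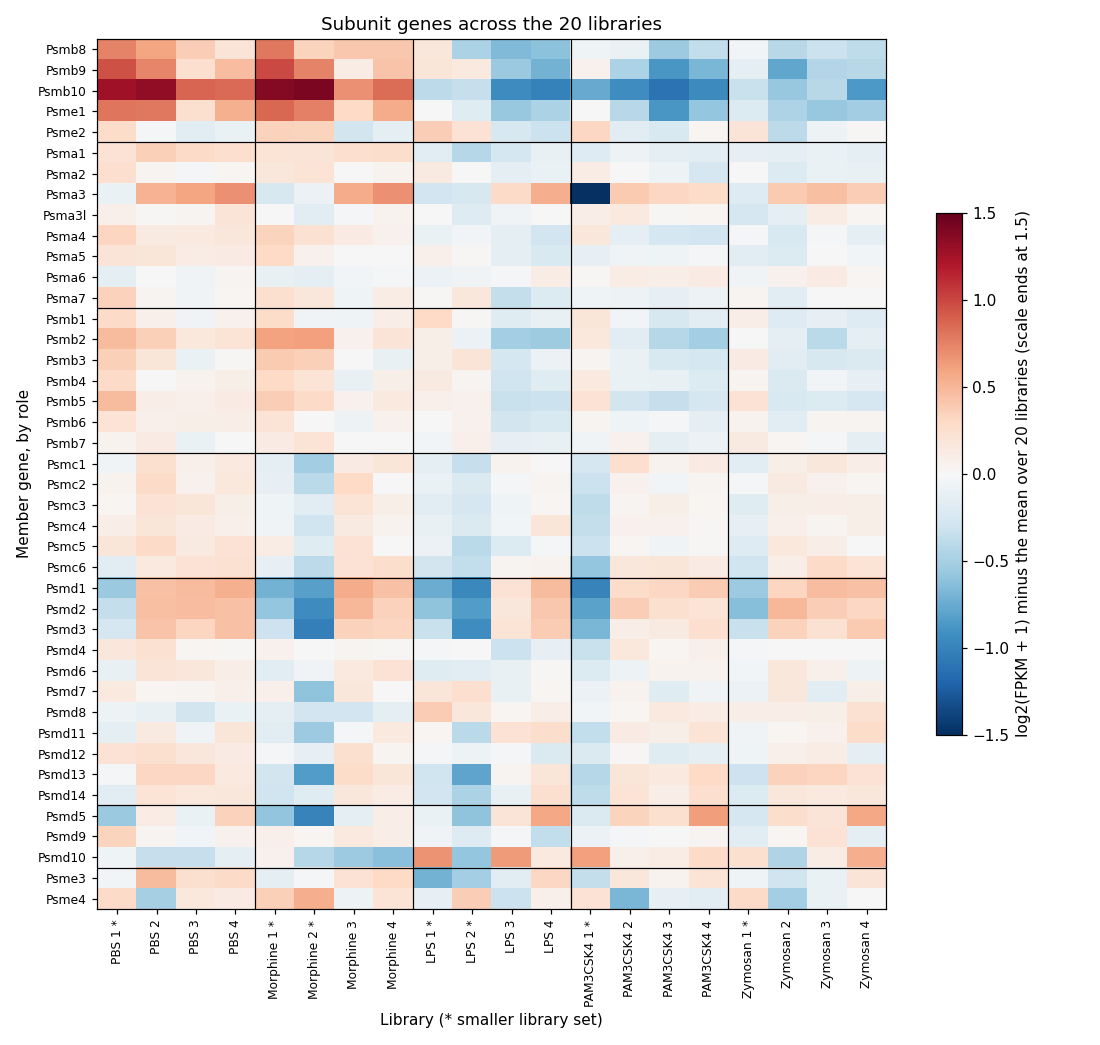
Each row is a tested subunit gene, grouped by role, and each column a library, with the 7 libraries of the smaller set starred. Colour is log2(FPKM + 1) minus the gene's mean over the 20 libraries, with the scale ending at 1.5. Psmb8, Psmb9, Psmb10 and Psme1 are red in the PBS and morphine columns and mostly blue or pale in the agonist columns, while Psmd1, Psmd2 and Psmd3 are blue in the starred columns of every group.

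Core and inducible subunits were abundant in vehicle-treated microglia. Psmb8 ranked second among the 45 rows in PBS at 276 ± 45.8 FPKM (SD, n = 4), after Psma3l, a second Psma3 row, at 310 ± 18.0 FPKM and ahead of Psma6, an alpha-ring subunit, at 251 ± 13.6 FPKM. Psme1 ranked 9 of 45, Psme2 16, Psmb10 23 and Psmb9 30. The spread of Psmb8 overlapped that of Psma3l and Psma6, so their order is not resolved. At the bottom stood the activator Psme4, at 6.71 ± 1.66 FPKM, and Psmd10, an assembly chaperone also called gankyrin, at 4.64 ± 0.56 FPKM. Psma8, the testis-type alpha subunit, was listed at 0 in all 20 libraries and Psmb11, the thymus-type beta subunit, reached 0.0352 FPKM in 1 PBS library and was 0 in the others. These 2 rows did not pass the filter of 1 FPKM in at least 4 libraries, which left 43 tested members, the 5 inducible genes and 38 others.

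With each of the 3 Toll-like receptor agonists, 4 of the 5 inducible genes fell. Psmb10 fell most, by 3.43-fold with LPS, 4.23-fold with PAM3CSK4 and 3.17-fold with zymosan on mean FPKM. Psmb8, Psmb9 and Psme1 fell by 1.68-fold to 2.14-fold. Psme2, the partner of Psme1, showed no change that passed the test. All 3 comparisons use the same 4 PBS libraries. Over all 8858 tested genes, limma called 27.3% lower with LPS, 22.6% with PAM3CSK4 and 14.2% with zymosan at an adjusted p under 0.05, and the median gene moved by -0.37, -0.27 and -0.18 (log2), against medians of -0.87, -1.05 and -1.03 over the 5 inducible genes.

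Psmb10 carries the trypsin-like site of the immunoproteasome. In PBS it measured 103, 108, 78.3 and 76.6 FPKM in libraries 1 to 4. It measured 31.8, 33.0, 21.5 and 20.3 FPKM with LPS, 24.6, 21.6, 19.1 and 21.3 FPKM with PAM3CSK4, and 33.2, 28.1, 31.2 and 22.7 FPKM with zymosan. Every agonist library lay below every PBS library, by a wide gap. The log2 changes were -1.76 (SE 0.20, limma adjusted p = 2.02e-06) with LPS, -2.02 (adjusted p = 4.52e-07) with PAM3CSK4 and -1.63 (adjusted p = 9.83e-06) with zymosan.

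Psmb8 carries the chymotrypsin-like site. Its PBS libraries stood at 329, 297, 254 and 225 FPKM. LPS libraries stood at 221, 141, 124 and 128 FPKM, PAM3CSK4 libraries at 189, 183, 135 and 152 FPKM, and zymosan libraries at 190, 147, 157 and 151 FPKM. The groups did not overlap, although the highest LPS library came close to the lowest PBS library. The changes were -0.87 (SE 0.18, adjusted p = 0.000979), -0.74 (adjusted p = 0.00407) and -0.77 (adjusted p = 0.00468) in the same order. Psmb9, the third inducible catalytic subunit, read 86.2, 73.8, 52.4 and 60.8 FPKM in PBS. It read 49.8, 48.5, 29.6 and 26.4 FPKM with LPS, 45.9, 31.2, 23.5 and 26.9 FPKM with PAM3CSK4, and 39.8, 25.0, 32.0 and 32.7 FPKM with zymosan. Its groups did not overlap either, and the changes were -0.84 (SE 0.25, adjusted p = 0.0151), -1.10 (adjusted p = 0.00263) and -1.05 (adjusted p = 0.0055). The LPS call on Psmb9 was lost without LPS replicate 4 (adjusted p = 0.0516).

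The activator subunits Psme1 and Psme2 parted. Psme1 stood at 222, 219, 151 and 184 FPKM in PBS. With LPS it stood at 127, 112, 85.2 and 90.9 FPKM, with PAM3CSK4 at 127, 95.2, 69.0 and 84.7 FPKM, and with zymosan at 110, 91.7, 85.5 and 87.9 FPKM. No agonist library reached the PBS range, and the changes were -0.90 (SE 0.19, adjusted p = 0.00108), -1.05 (adjusted p = 0.000287) and -1.03 (adjusted p = 0.000574). Psme2 stood at 162, 132, 120 and 125 FPKM in PBS, 174, 156, 113 and 107 under LPS, 166, 119, 114 and 137 under PAM3CSK4, and 153, 102, 127 and 135 under zymosan. Its groups overlapped throughout. The differences were 0.01 (95% interval -0.39 to 0.40), -0.01 (-0.41 to 0.38) and -0.06 (-0.46 to 0.33), so a change of up to about 0.4 on the log2 scale in either direction lies within these intervals.

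**Figure D2:**
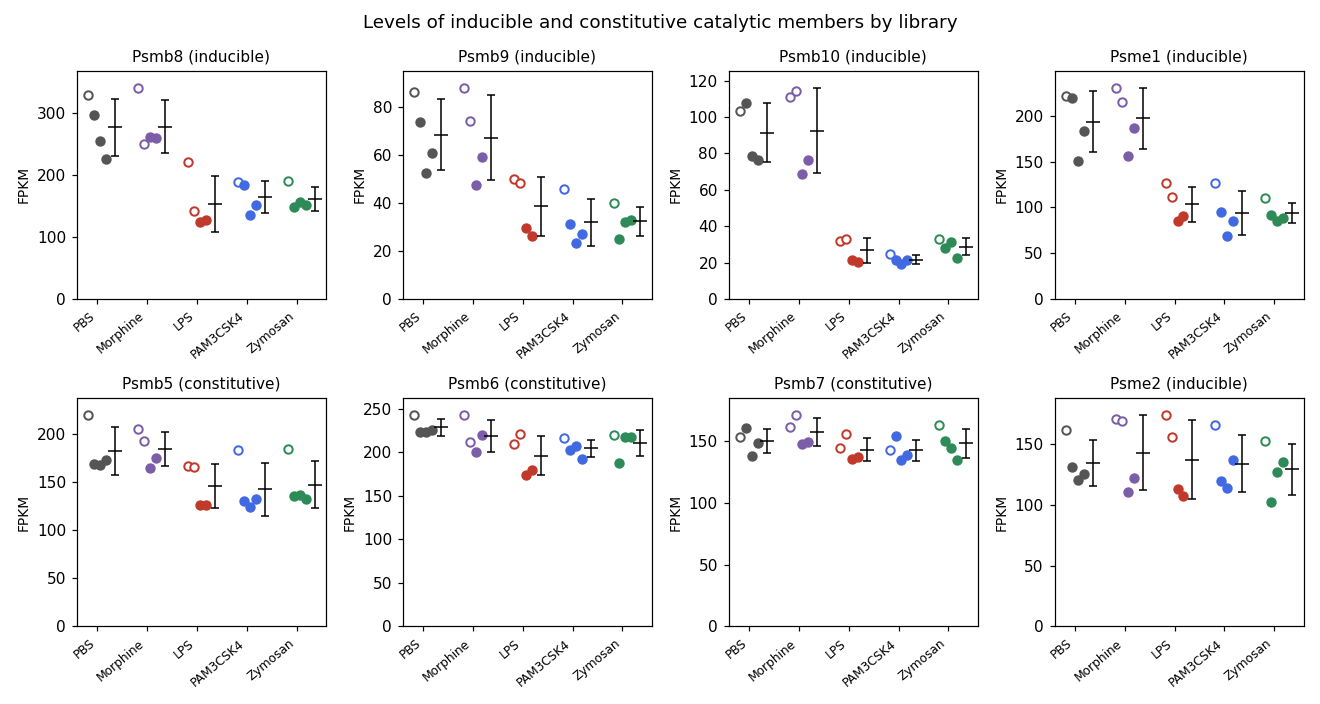
FPKM (linear axis from 0) of the 5 inducible genes and the 3 constitutive catalytic genes in each library, by treatment. Open circles are the smaller library set, filled circles the larger, and the black mark is the group mean with its SD (n = 4). Psmb8, Psmb9, Psmb10 and Psme1 in the 3 agonist groups lie below every PBS value, whereas Psme2 overlaps between all groups.

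The size of these falls depended on the scale. When each library was rescaled by the median ratio of its genes, the median gene stood near 0 in each comparison, 1 of the 5 inducible genes (Psmb10) was called lower with each agonist, at -1.33, -1.71 and -1.43, where 13.5%, 13.4% and 9.21% of all genes were called lower and 12.3%, 12.1% and 8.3% higher. Psmb8 then stood at -0.44 (adjusted p = 0.281), -0.43 (adjusted p = 0.301) and -0.56 (adjusted p = 0.202). With that rescaling and the library set as a term together, chosen after seeing the data, Psmb8, Psmb9, Psmb10 and Psme1 were called lower with each agonist, Psmb8 at -0.62, -0.43 and -0.56, and Psme2 was called higher with PAM3CSK4 at 0.30 (adjusted p = 0.0138). In that fit 20.7%, 21.4% and 15.8% of all genes were called lower and 21.1%, 21.6% and 16.3% higher.

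Ratios within a library do not depend on how the library was scaled. Each inducible catalytic subunit was divided by the constitutive subunit it replaces. Psmb10/Psmb7 averaged 0.606 ± 0.077 in PBS and 0.185 ± 0.036 under LPS, 0.152 ± 0.015 under PAM3CSK4 and 0.194 ± 0.020 under zymosan (SD, n = 4). The log2 ratio differed from PBS by -1.69, -1.94 and -1.61, each with the smallest p that an exact two-sided permutation test of 4 against 4 allows, 0.0286, from 70 regroupings. Psmb9/Psmb6 averaged 0.298 in PBS and 0.193, 0.155 and 0.153 with the agonists, a log2 difference of -0.61 (exact permutation p = 0.0571) with LPS, -0.94 (p = 0.0286) with PAM3CSK4 and -0.93 (p = 0.0286) with zymosan. Psmb8/Psmb5 moved least, from 1.52 in PBS to 1.04, 1.16 and 1.10, a log2 difference of -0.55 (exact permutation p = 0.0571), -0.38 (p = 0.0571) and -0.45 (p = 0.0286). Adjusted over the 12 comparisons of 3 ratios and 4 treatments, the 6 at the smallest p stood at 0.0571 and the other 3 agonist comparisons at 0.0762, so none passed 0.05. A single comparison at the smallest p could not pass after this adjustment, however large its change. Exchange within same-numbered pairs of PAM3CSK4 or zymosan with PBS was added after seeing the data, and equal numbers were not shown to be pairs. It gave an exact permutation p of 0.125 for each of the 3 ratios with either agonist, the smallest that 4 pairs allow. All 4 pairs lay below 0 in each. In every one but Psmb8/Psmb5 with PAM3CSK4, all agonist ratios lay below all PBS ratios, so any pairing would give this p. The exchange could not pass 0.05 and adds no support. In the larger library set alone the Psmb8/Psmb5 differences were -0.60, -0.33 and -0.43, and those of Psmb10/Psmb7 were -1.87, -1.95 and -1.58.

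The denominators themselves gave no call in the fit with group means alone. Psmb5 measured 220, 170, 168 and 173 FPKM in PBS, 167, 166, 126 and 127 under LPS, 184, 130, 125 and 133 under PAM3CSK4 and 184, 136, 137 and 133 under zymosan, at log2 differences of -0.32, -0.36 and -0.31 (limma adjusted p = 0.117, 0.0914 and 0.186). With the library set as a term, Psmb5 was called lower with all 3 agonists, at -0.42, -0.36 and -0.31, and with the replicate number as a block it was called lower too (adjusted p = 0.00768, 0.00422 and 0.015). Psmb6 measured 243, 223, 224 and 225 FPKM in PBS and 174 to 221 over the 12 agonist libraries, so no agonist library reached its PBS range. Of all genes, 26.3%, 24.2% and 19.9% were lower without overlap with LPS, PAM3CSK4 and zymosan. Over the larger library set the mean of Psmb6 was 224 FPKM in PBS and 177, 201 and 208 FPKM with the agonists. Psmb7 measured 154, 161, 138 and 149 FPKM in PBS and 134 to 163 over the same 12 agonist libraries. Psmb7 differed from PBS by -0.07, -0.07 and -0.02 (log2), with overlapping groups.

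Psme1/Psme2 was added after the values were seen and is a description without a test. It was 1.37, 1.67, 1.25 and 1.47 in the PBS libraries. It was 0.728, 0.719, 0.752 and 0.849 under LPS, 0.764, 0.797, 0.605 and 0.618 under PAM3CSK4 and 0.720, 0.897, 0.673 and 0.651 under zymosan. In PBS every library held more Psme1 than Psme2 per transcript length, and in the 12 agonist libraries every library held less.

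**Figure D3:**
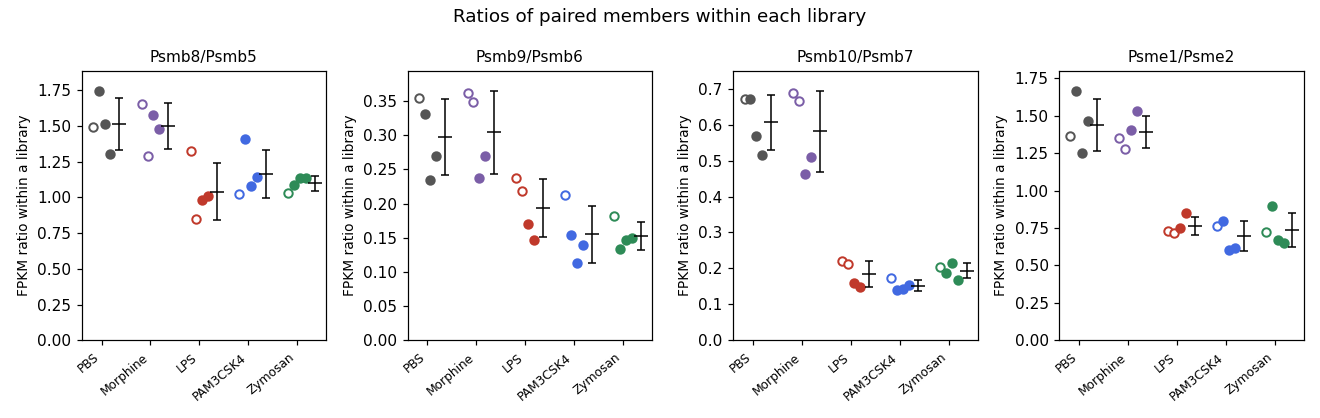
Ratio of FPKM within each library (linear axis from 0) for the 3 inducible over constitutive catalytic pairs and for Psme1 over Psme2, by treatment. Open circles are the smaller library set and the black mark is the mean with its SD (n = 4). Psmb10/Psmb7 shows the widest gap, from 0.606 in PBS to between 0.152 and 0.194 with the agonists, and the Psme1/Psme2 values cross from above to below 1.

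The 5 inducible genes made up 15.1 ± 1.86% of the summed FPKM of all 45 rows in PBS and 16.01 ± 2.39% with morphine. They made up 10.97 ± 2.21% under LPS, 10.5 ± 1.87% under PAM3CSK4 and 10.3 ± 1.36% under zymosan (SD, n = 4). In FPKM their sum went from 765 ± 120 in PBS to 460 ± 110, 446 ± 80.2 and 446 ± 56.8, while the sum of the other rows went from 4269 to 3708, 3823 and 3875. All members together took 1.38% of a library's FPKM in PBS and 1.17%, 1.17% and 1.15% with the agonists. The share of the inducible genes was also higher in the smaller library set: over the larger set it was 14.4% in PBS and 9.16%, 9.57% and 9.65% with the agonists.

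The other 38 tested members are the remaining subunits, the chaperones of their assembly, the activators Psme3 and Psme4, and Psmc3ip, which is no subunit. What they showed depended on the scale. On the deposited FPKM, limma called 5 lower and 1 higher with LPS, 4 lower with PAM3CSK4 and 1 lower with zymosan, shares below the 27.3%, 22.6% and 14.2% called lower over all genes; 5.02%, 5.62% and 4.66% of all genes were called higher. Their median change was -0.22, -0.17 and -0.11 (log2), nearer to 0 than the median gene. Among groups that did not overlap with PBS, 12, 7 and 7 of the 38 were lower, against 26.3%, 24.2% and 19.9% of all genes, and 1, 2 and 1 were higher, against 5.18%, 5.83% and 6.24%. The share of the 38 that was lower without overlap was thus above that of all genes with LPS and below it with PAM3CSK4 and zymosan. With the replicate number as a block, 7 of the 38 were called lower with PAM3CSK4 and 6 with zymosan, where 32.3% and 22.1% of all genes were. That fit called 41.4% of all genes lower with LPS, and 7.59%, 8.5% and 7.5% higher with the 3 agonists. With the library set as a term, 15, 12 and 8 of the 38 were called lower, against 40.6%, 40.4% and 28.4% of all genes, and 1 (Psmd8) was called higher with each, against 9.74%, 10.5% and 9.56%. In the larger set alone 11, 10 and 7 were lower, against 38.0%, 36.6% and 29.3%, and 1 was higher with each, against 9.44%, 11.7% and 10.5%. With LPS the gene called higher in the larger set was not Psmd8, whose call was lost there.

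Rescaling turned most of these 38 genes to the other side of 0. On the deposited scale 5, 4 and 5 of them stood above 0, and after rescaling 32, 31 and 30 did, with medians of 0.21, 0.14 and 0.086. Rescaling alone called 1, 0 and 0 of the 38 lower, against 13.5%, 13.4% and 9.21% of all genes, and 4, 3 and 0 higher, against 12.3%, 12.1% and 8.3%. The 1 called lower, with LPS, was Psmc3ip, which is no subunit. The genes called higher were Psma6, Psmd5 and Psmd8 with LPS and PAM3CSK4, and Psmd11 with LPS. Rescaling with the set term called 3, 0 and 1 lower, against 20.7%, 21.4% and 15.8%, and 13, 11 and 4 higher, against 21.1%, 21.6% and 16.3%. The share called higher in that fit was above that of all genes with LPS and PAM3CSK4 and below it with zymosan.

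In the alpha ring, Psma1 fell with every agonist on the deposited scale. It measured 197 to 218 FPKM in PBS, 126 to 158 under LPS, 148 to 161 under PAM3CSK4 and 154 to 159 under zymosan. No agonist library overlapped the PBS range, and the log2 changes were -0.52 (SE 0.09, adjusted p = 0.000188), -0.42 (adjusted p = 0.00141) and -0.40 (adjusted p = 0.00325). Rescaling ended these calls, at -0.087, -0.11 and -0.20 (adjusted p = 0.718, 0.661 and 0.438), and rescaling with the set term ended that with PAM3CSK4. Psma4, another ring subunit, went from 97.6, 85.7, 86.5 and 88.2 FPKM in PBS to 73.0, 75.5, 70.3 and 63.6 with LPS, a change of -0.34 (adjusted p = 0.032), and was also called lower with PAM3CSK4 at -0.32 (adjusted p = 0.0446). Rescaling turned the Psma4 value with LPS to 0.092 and ended the PAM3CSK4 call at -0.011, and the LPS call was lost without any 1 of the 4 PBS libraries or LPS replicate 3 or 4. The PAM3CSK4 call on it was lost without any 1 of 12 libraries, the 4 of PBS, PAM3CSK4 replicates 2, 3 and 4, LPS replicates 1 and 3, zymosan replicates 3 and 4 and morphine replicate 3. Psma6 read 251 ± 13.6 FPKM in PBS and 255 ± 16.1, 274 ± 9.63 and 265 ± 13.6 with the agonists, none of which passed the test; rescaling called it higher with LPS at 0.46 and with PAM3CSK4 at 0.44. Psma3 and Psma3l are a single gene in RefSeq, where the second name is a synonym, so their reads cannot be assigned with certainty. Psma3 was listed at 0 in PAM3CSK4 replicate 1 and at 35.8 to 38.9 FPKM in the other 3 libraries of that group, and Psma3l stood at 314 FPKM in the same library.

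In the beta ring, Psmb2, a structural subunit without a catalytic site, was the called member. It measured 162, 149, 131 and 135 FPKM in PBS, 124, 110, 82.0 and 80.7 under LPS, 131, 104, 86.6 and 81.5 under PAM3CSK4 and 117, 106, 87.7 and 105 under zymosan. The changes were -0.55 (SE 0.18, adjusted p = 0.022), -0.53 (adjusted p = 0.0302) and -0.47 (adjusted p = 0.0731), the last of which did not pass, though it did with the replicate block (adjusted p = 0.00121). The LPS call was lost without PBS replicate 1 or 2 or LPS replicate 3 or 4, and the PAM3CSK4 call without PBS replicate 1 or 2 or PAM3CSK4 replicate 3 or 4. Rescaling ended both calls, at -0.12 and -0.22 (adjusted p = 0.811 and 0.664), and rescaling with the set term ended that with PAM3CSK4. All 7 beta-ring genes had log2 differences below 0 with each agonist, with medians of -0.19, -0.18 and -0.20, where the median of all genes was -0.37, -0.27 and -0.18. After rescaling 6, 5 and 4 of the 7 stood above 0, and rescaling with the set term called Psmb7 higher with LPS at 0.23 and with PAM3CSK4 at 0.24.

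The base of the regulatory particle is a ring of 6 ATPases, Psmc1 to Psmc6. All 6 had differences below 0 with each agonist, as the median of all genes did, and all 6 stood above 0 with each after rescaling. On the deposited scale 1 passed the test, Psmc5 with LPS. It read 108, 116, 104 and 111 FPKM in PBS and 89.2, 71.3, 82.4 and 93.5 with LPS, without overlap, at -0.38 (SE 0.12, adjusted p = 0.0227). That call was lost without PBS replicate 2, PBS replicate 4 or LPS replicate 2, and rescaling turned the value to 0.046. Rescaling with the set term called Psmc1, Psmc4 and Psmc6 higher with LPS, at 0.20, 0.22 and 0.21, and Psmc1 and Psmc6 higher with PAM3CSK4, at 0.25 and 0.18.

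Among the 11 non-ATPase subunits, Psmd8 was called higher with LPS and Psmd12 lower with PAM3CSK4. Psmd8, a lid subunit, stood at 64.6, 63.1, 56.3 and 63.6 FPKM in PBS and at 89.1, 76.95, 69.8 and 73.0 with LPS, without overlap, at 0.31 (SE 0.10, adjusted p = 0.0268). The call was lost without PBS replicate 3 or LPS replicate 1, and in the larger library set alone. PAM3CSK4 gave 0.20 (adjusted p = 0.154) and zymosan 0.27 (adjusted p = 0.0741) for Psmd8. Both passed with the library set as a term (adjusted p = 0.0488 and 0.0149) and in the larger set alone (adjusted p = 0.0166 and 0.00977), and that with zymosan also passed with the replicate block (adjusted p = 0.0348). Rescaling gave 0.74, 0.51 and 0.47, called with LPS and PAM3CSK4. Psmd12, also of the lid, stood at 67.4, 68.5, 65.2 and 63.1 FPKM in PBS and at 49.6, 58.7, 50.7 and 52.1 with PAM3CSK4, at -0.32 (SE 0.11, adjusted p = 0.0322); that call was lost without PBS replicate 1, 2 or 3 or PAM3CSK4 replicate 1, 3 or 4, and after rescaling, with and without the set term, where it stood at -0.011. For Psmd1, Psmd2 and Psmd3 the intervals were wide, and these are the genes of the group in which the library sets differed most.

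None of the 3 assembly chaperones Psmd5, Psmd9 and Psmd10 or of the activators Psme3 and Psme4 passed the test on the deposited scale; rescaling called Psmd5 higher with LPS at 0.50 and with PAM3CSK4 at 0.61. Psmd10 read 4.64 ± 0.56 FPKM in PBS and 7.09 ± 2.87, 7.02 ± 1.43 and 6.33 ± 1.98 with the agonists, and Psme3, the nuclear activator related to Psme1, read 41.3 ± 6.09 FPKM in PBS and 29.7 ± 9.85, 35.4 ± 5.99 and 33.2 ± 4.86. Psmc3ip matches the symbol rule but encodes a protein of meiotic recombination, not a subunit. It was listed at 13.8, 10.2, 12.5 and 0 FPKM in PBS, at 0 in all 4 LPS libraries, at 6.16, 0, 0 and 0 with PAM3CSK4 and at 0, 0, 7.90 and 0 with zymosan, and it is 1 of the 5 others called lower with LPS (adjusted p = 0.0324), a call lost without any 1 of the 4 LPS libraries or PBS replicate 1, 2 or 3. Such a listed 0 can be a failed estimate.

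**Figure D4:**
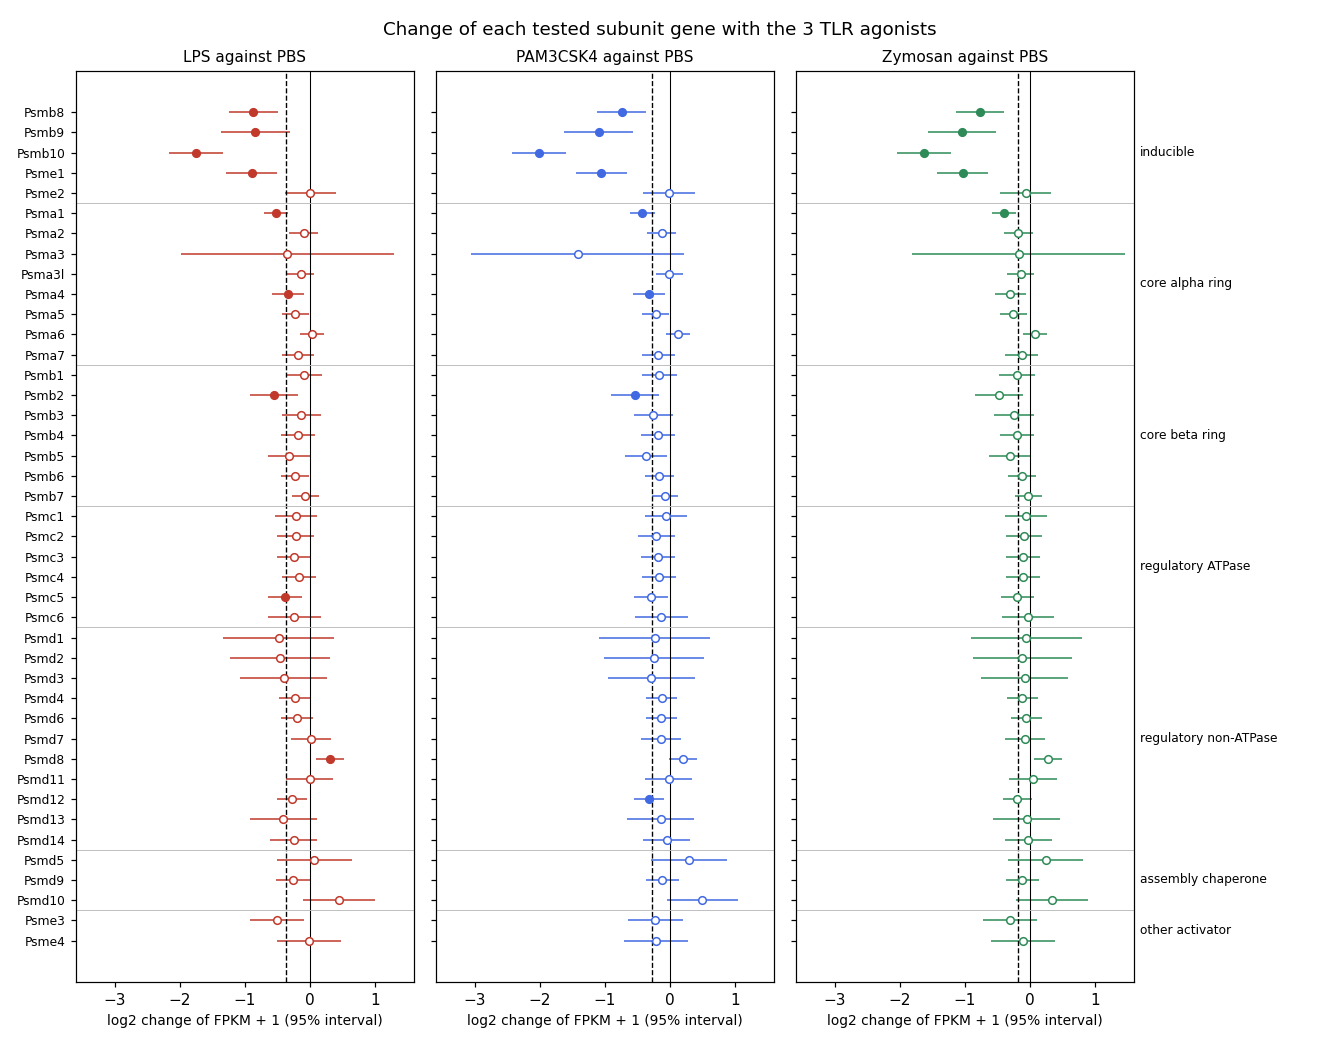
Log2 change of FPKM + 1 against PBS with its 95% interval for the 42 tested members that are subunits, assembly chaperones or activators, grouped by role, with 1 panel per agonist. Filled points passed the test at an adjusted p under 0.05, the solid line is 0 and the dashed line is the median of all tested genes (-0.37, -0.27 and -0.18). The 4 called inducible genes lie left of the dashed line in each panel and Psme2 lies near 0.

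Morphine left the members near their PBS levels. The log2 differences of the inducible genes ran from -0.04 to 0.07. Psmb8 measured 340, 249, 261 and 260 FPKM, Psmb9 88.0, 74.0, 47.4 and 59.3 FPKM, Psmb10 111, 114, 68.5 and 76.1 FPKM, Psme1 231, 215, 156 and 187 FPKM and Psme2 171, 169, 111 and 122 FPKM. Each range overlapped the PBS range. limma called 0 of 43 members, and 0 had an unadjusted p under 0.05; over all 8858 genes it called 0 (0.0%) in either direction, with 104 at an unadjusted p under 0.05. The log2 ratios Psmb8/Psmb5, Psmb9/Psmb6 and Psmb10/Psmb7 differed from PBS by -0.01, 0.03 and -0.07 (exact permutation p = 0.886, 0.83 and 0.686).

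Between agonists, no member was called either. In the 3 pairs, limma called 0 of 43 members, none at an unadjusted p under 0.05, where the share of all genes called was 0.0113% higher and 0.0226% lower for PAM3CSK4 against LPS, 0.0339% higher and 0.0564% lower for zymosan against LPS, and 0.0% for zymosan against PAM3CSK4. The widest difference among the inducible genes was that of Psmb10 between zymosan and PAM3CSK4, 0.39 (95% interval -0.03 to 0.81). Psmb9 between PAM3CSK4 and LPS differed by -0.26 (-0.78 to 0.27). These intervals do not show that the agonists act alike on the 2 genes.

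Regulators and partners of the proteasome were read from lists chosen with earlier results known. Of 15 tested interferon pathway regulators, 5 fell and 1 rose with LPS, 4 fell and 2 rose with PAM3CSK4, and 3 fell and 2 rose with zymosan. Over all genes 27.3%, 22.6% and 14.2% were called lower and 5.02%, 5.62% and 4.66% higher, so the shares called lower were near the background. Irf1, a factor known to bind the element marked in the promoters, went from 17.1 ± 1.71 FPKM in PBS to 11.2 ± 1.81, 10.2 ± 1.71 and 10.2 ± 1.26, changes of -0.58, -0.70 and -0.69 (adjusted p = 0.0298, 0.0108 and 0.0161). Irf8, a myeloid factor of the same family, went from 40.3 ± 12.2 to 18.9 ± 7.78, 17.3 ± 5.19 and 18.7 ± 7.42 FPKM and was called lower with each. Socs3, an inhibitor of cytokine signalling, rose from 3.18 ± 0.85 FPKM to 43.0 ± 27.3, 51.1 ± 24.7 and 54.2 ± 21.7. Rescaling kept the calls on Irf8 and Socs3 with each agonist and lost that on Irf1 with LPS.

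Interferon-induced genes were called in both directions. Of 17 tested, 6 fell and 1 rose with LPS, 3 fell and 2 rose with PAM3CSK4, and 2 fell and 1 rose with zymosan. The shares called lower also lay near those over all genes, 27.3%, 22.6% and 14.2%. Oas2, a sensor of double-stranded RNA, went from 7.08 ± 1.42 FPKM in PBS to 2.74 ± 0.95, 2.55 ± 1.16 and 2.34 ± 0.89. Usp18, which removes ISG15 from proteins and restrains interferon signalling, rose from 52.8 ± 8.31 to 116 ± 24.5, 130 ± 41.8 and 131 ± 24.4 FPKM. Of 7 genes of peptide transport and MHC class I loading, 0 were called with LPS or zymosan and 1 with PAM3CSK4, the MHC light chain B2m, at -0.56 (adjusted p = 0.0408). After rescaling 0 of the 7 were called lower with PAM3CSK4 and 2 higher, where 13.4% and 12.1% of all genes were. Tap1, which pumps peptides into the endoplasmic reticulum and lies between Psmb8 and Psmb9, read 29.5 ± 6.13 FPKM in PBS and 27.8 ± 7.71, 30.9 ± 9.64 and 28.0 ± 7.77 with the agonists, at -0.10, 0.03 and -0.10 (adjusted p = 0.83, 0.961 and 0.891). Tap2 read 3.20 ± 1.53 FPKM in PBS and also passed no test on the deposited scale. On that scale Psmb8 and Psmb9 were called lower and Tap1 between them was not. Rescaling ended the calls on Psmb8 and Psmb9 with each agonist. Whether their changes differ from that of Tap1 was not tested.

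Of 5 tested assembly factors and inhibitors, 3 fell with LPS, 1 with PAM3CSK4 and 1 with zymosan, where 27.3%, 22.6% and 14.2% of all genes were called lower. Psmf1, an inhibitor of the core, went from 32.8 ± 1.86 FPKM to 25.7 ± 3.94, 23.8 ± 0.94 and 24.8 ± 0.12, changes of -0.35, -0.44 and -0.39 (adjusted p = 0.0459, 0.0145 and 0.0415). None of these calls held after rescaling, where Psmf1 with LPS turned to 0.07. Pomp, the maturation factor of the core, read 81.6 ± 19.7 FPKM in PBS and 63.6 ± 21.2, 71.3 ± 11.5 and 69.1 ± 14.3 and passed no test. Among 10 shuttle receptors and deubiquitinases, Sqstm1, the autophagy receptor also called p62, rose with each agonist, from 407 ± 80.0 to 687 ± 146, 1077 ± 286 and 794 ± 210 FPKM. Uchl5, a deubiquitinase of the proteasome, fell with LPS at -0.50, and the shuttle receptor Ubqln2 fell with PAM3CSK4 at -0.67. Rescaling called 0 of the 10 lower with any agonist and 2, 1 and 1 higher. Of 4 ubiquitin genes, Rps27a fell with zymosan at -0.70 (adjusted p = 0.0296) and the others were not called. Rescaling called 0 of these 4 lower with any agonist and 2, 2 and 1 higher. Over all genes it called 13.5%, 13.4% and 9.21% lower and 12.3%, 12.1% and 8.3% higher. Of the 3 tested regulators of proteasome genes, 0 were called; Nfe2l2 read 60.0 ± 11.9 FPKM in PBS and 44.5 ± 12.4, 59.7 ± 16.1 and 66.2 ± 14.6 with the agonists, and Nfe2l1 was not analysed here.

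Markers of microglia moved with the same groups. The summed FPKM of 12 microglial markers ran from 1557 to 1804 in PBS and 1448 to 1723 under morphine. It ran from 738 to 883 in the LPS group, 725 to 773 in the PAM3CSK4 group and 879 to 1010 in the zymosan group. With each agonist 10 of the 12 were called lower, where 27.3%, 22.6% and 14.2% of all genes were. After rescaling 9, 10 and 8 of the 12 were, against 13.5%, 13.4% and 9.21% of all genes. In bulk RNA fewer cells of a type and less RNA per cell cannot be told apart. Markers of other cells moved with the agonists as well, at lower sums. The neuronal list summed to between 2.90 and 6.59 FPKM in PBS, 1.11 and 5.44 under morphine, and 9.51 and 25.5 over the 12 agonist libraries, without overlap, with Rbfox3 and Syt1 listed at 0 in every library. The endothelial and mural list ran from 3.17 to 9.51 FPKM in PBS and lay at or below 2.76 in every agonist library, with Cldn5 and Rgs5 listed at 0. The border macrophage list ran from 5.19 to 18.8 FPKM in PBS and from 0.789 to 7.18 with the agonists, with Cd163 listed at 0. The T cell, B cell and neutrophil list reached 1.49 FPKM in PBS and 5.37 with the agonists, with Cd3e, Cd3g, Ms4a1 and Mpo listed at 0, and the oligodendrocyte lineage list ran from 10.1 to 18.1 FPKM in PBS and from 2.60 to 12.9 with the agonists, with Mag listed at 0. The astrocyte list reached at most 0.56 FPKM, with Gfap and Aqp4 listed at 0. A listed 0 in this table, as for Psma3 in 1 library, is not proof of absence. The part of these markers in the changes of the proteasome genes was not tested.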

How the data were processed

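RNA from 20 libraries (5 groups of 4) was prepared with Smart-Seq2, per the labels' protocols. The authors deposited 1 table of FPKM per gene symbol, a fragment count divided by transcript length and library size by the authors. HISAT2 2.0.5.1, Cufflinks 2.2.1, featureCounts 1.4.6, DESeq2 and the rn6 build are named in the submitters' processing notes, without roles. No counts were used.

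Groups came from the labels. The authors' values were taken as deposited, and the 8858 of 17310 genes that reached 1 FPKM in 4 or more libraries were fitted as log2(FPKM + 1) with limma 3.58.1 in R 4.3.3, with 5 group means over all 20 libraries, a mean-variance trend, two-sided tests and Benjamini-Hochberg adjustment over all tested genes; adjusted p under 0.05 was called. A fold change on this scale understates low genes. Fold values in the text are ratios of mean FPKM. Ratios of 2 genes used log2 of (FPKM + 1) quotients and exact permutation tests. The script was tested on simulated data. Members and lists were chosen with earlier results of these data known. Some listed genes are not reported by name here. Named were the 5 inducible and 3 constitutive catalytic genes and every other member called in a treatment against PBS. No 2 libraries were identical. Low values of a gene stood in whole-number ratios (numbers up to 10, within 0.05%) for 55.9% to 72.6% of the pairs tried per library, which gave the relative depths; precision is limited by 4 libraries a group.

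Same-numbered libraries deviated together in every pair for PAM3CSK4 and zymosan against PBS (correlations from 0.318 to 0.824 over all tested genes). For LPS and morphine replicate 2 did not (-0.19 and -0.14). In PBS, PAM3CSK4 and zymosan only replicate 1 belonged to the smaller library set, so these correlations can follow from the sets and do not show pairing. Differently numbered libraries were not compared. The exchange within pairs took equal numbers as pairs without that being shown. The alternatives tried comprised a 0.1 FPKM pseudocount, no filter, median-ratio rescaling, the replicate block, a library-set term, the larger library set only, listed zeros as missing (41 values), leaving out each library, and, added after seeing the data, rescaling with the set term and exchange within pairs for the ratios. Promoter windows are from RefSeq, GRCr8.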

Additional observations from a re-analysis of the deposited data

Results flagged for a closer look

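In sets of 4 libraries, 21 of 214 had a lowest or highest library set apart from the other 3 by a gap above Dixon's critical value, where chance gives about 1 in 20. Of the 21, 18 are libraries of the smaller set. On the high side stood Psmb5 in PBS replicate 1 (220 FPKM), PAM3CSK4 replicate 1 (184) and zymosan replicate 1 (184), against 168 to 173, 125 to 133 and 133 to 137 FPKM in the other libraries of each group. Also high were Psmb6 in PBS replicate 1 (243 FPKM), Psmb8 in morphine replicate 1 (340 FPKM, the others 249 to 261) and Psmb3 in zymosan replicate 1 (211 FPKM, the others 164 to 171). Psmb6 was low in zymosan replicate 2 (188 FPKM) and Psmd8 high in zymosan replicate 4 (80.2 FPKM), both in the larger set.

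Regulatory-particle genes stood low in the same first replicates. Psmd1 read 41.1 FPKM in PBS replicate 1 and 30.0 in PAM3CSK4 replicate 1, Psmd2 read 58.1 in PBS replicate 1, and Psmd14, the deubiquitinase of the lid, read 99.5 in PBS replicate 1 and 96.5 in zymosan replicate 1. The ATPase genes read 71.2 (Psmc3), 67.3 (Psmc4) and 35.7 FPKM (Psmc6) in PAM3CSK4 replicate 1, and Psmc3 read 82.3 in zymosan replicate 1. Psma3 was listed at 0 in PAM3CSK4 replicate 1 and at 25.7 FPKM in zymosan replicate 1. Psmc3ip, no subunit, stood at 6.16 FPKM in PAM3CSK4 replicate 1 and 7.90 in zymosan replicate 3, with 0 in the other 3 libraries of each group.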

How the results depend on the processing

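Across settings, the 4 inducible genes called lower with each agonist stayed at 4 under the smaller pseudocount, no filter, the replicate block, the library-set term, the larger library set, listed zeros as missing, and rescaling with the set term. Rescaling alone left 1 with LPS, 1 with PAM3CSK4 and 1 with zymosan, and rescaling with the set term called 1 inducible gene (Psme2, 0.30) higher with PAM3CSK4. Among the other members, rescaling gave 1, 0 and 0 called lower, against 13.5%, 13.4% and 9.21% of all genes. It gave 4 (LPS) and 3 (PAM3CSK4) called higher, against 12.3% and 12.1%. Rescaling with the set term gave 3 lower with LPS and 0 with PAM3CSK4, against 20.7% and 21.4% of all genes. It gave 13, 11 and 4 higher, against 21.1%, 21.6% and 16.3% of all genes higher. The replicate block gave 9, 7 and 6 lower, against 41.4%, 32.3% and 22.1% of all genes. It kept Psmd8 higher with LPS and gave 1 higher with zymosan, against 7.59% and 7.5%. The library-set term gave 15, 12 and 8 lower, against 40.6%, 40.4% and 28.4%. It gave 1 higher with each agonist, against 9.74%, 10.5% and 9.56%. The larger set gave 11, 10 and 7 lower, against 38.0%, 36.6% and 29.3%. It also gave 1 higher with each, against 9.44%, 11.7% and 10.5%. Taking listed zeros as missing gave 2 lower with zymosan, and no filter gave 1 higher. Leaving out each library gave 3 to 4 inducible genes lower with LPS and 4 to 4 with PAM3CSK4 and zymosan. Of the others it gave 1 to 6, 1 to 5 and 1 to 3 lower, and 0 to 2 higher with LPS and 0 with the other agonists. Of the 8831 to 8850 genes tested, these fits called 1852 to 2733, 1507 to 2120 and 914 to 1424 lower. They called 352 to 491, 402 to 584 and 317 to 463 of all genes higher.

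Under rescaling most of the other 38 members changed sign (32, 31 and 30 above 0, against 5, 4 and 5). Counting values called in the deposited or the altered fit, direction turned in 19. With LPS, rescaling turned Psma4 to 0.092, Psmc5 to 0.046 and Psmd11 to 0.43. Rescaling with the set term gave, with LPS, Psma2 0.19, Psma3l 0.21, Psmb7 0.23, Psmc1 0.20, Psmc4 0.22, Psmc6 0.21, Psmd11 0.42 and Psmd14 0.19, and with PAM3CSK4, Psma2 0.19, Psma3l 0.31, Psmb7 0.24, Psmc1 0.25, Psmc6 0.18, Psmd11 0.29, Psmd14 0.26 and Psme2 0.30. The rescaling shifts every gene up by about the median change of the agonist groups, which its construction sets to 0. The replicate block ended the call on no inducible gene. Equal numbers were not shown to pair libraries for any agonist, and same-numbered LPS and PBS libraries did not all deviate together. The catalytic ratios kept their direction with each agonist under the pseudocount, the larger set and each library left out. With absolute depth unknown and 4 libraries a group, small changes were not resolved for most members, least so for Psmd1, Psmd2 and Psmd3.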
